A study of Mus musculus with 9 samples.

Results

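Amino acids and short peptides cross cell membranes through several families of solute carriers, and 69 of the 22180 genes measured in mouse kidney here carry a symbol of 8 such families. The genes were taken by symbol alone, as those that start with Slc1a, Slc3a, Slc6a, Slc7a, Slc15a, Slc36a, Slc38a or Slc43a followed by a number. The Slc6a family gave 20 genes, Slc7a 16, Slc38a 11, Slc1a 7, Slc15a 5, Slc36a 5, Slc43a 3 and Slc3a 2. Of these, 66 are transporter genes or their partner subunits, and 3 (Slc36a1os, Slc6a19os and Slc7a6os) are symbols of transcripts on the opposite strand of a transporter gene. Slc6a9, a glycine transporter, had no row of its own and was not analysed here.

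In the kidney, almost all amino acids filtered at the glomerulus are taken back by the proximal tubule. Transporters in its apical brush border bring neutral, basic and acidic amino acids and short peptides into the cell, mostly driven by sodium or protons, and exchangers and facilitators in the basolateral membrane pass them on to the blood. Several of these carriers work only as pairs of a heavy chain (Slc3a1 or Slc3a2) and a light chain of the Slc7a family. Other members are found in most cell types, where they supply amino acids for growth, or sit in lysosomes, or are best known for clearing transmitters in the brain.

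Whole-kidney RNA from mice was measured on 9 arrays in 3 groups of 3. Sham arrays came from kidneys taken 3 weeks after a sham operation. CBDL arrays came from kidneys 3 weeks after common bile duct ligation, which dams up bile and harms the kidney as well as the liver. Arrays of the norUDCA group came from ligated mice, also at 3 weeks, that had been prefed norursodeoxycholic acid (norUDCA), a side-chain-shortened bile acid, for 5 days. The labels give no strain, sex, age or dose, do not say whether feeding went on after the ligation, and no sham group fed norUDCA was analysed here. The title of the series names the kidney injury of cholestasis, cholemic nephropathy, and its relief by norUDCA as the question. Nothing in the labels says that the arrays of a group are separate animals, so the tests below cover the spread among the arrays as labelled, which may be technical. Values below are the deposited log2 signals, so a difference of 1 is a doubling, and signals of different genes are not compared, because each array probe set has its own brightness. A gene is said to have risen or fallen only where limma's test, adjusted by Benjamini-Hochberg over all 22180 genes, gave p under 0.05.

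Array medians lay between 5.70 and 5.79. Summed signals of 6 thick limb and distal tubule markers lay between 13.90 and 14.47 on all 9 arrays, and those of 12 proximal tubule markers between 14.29 and 15.98. Such sums add the unlogged signals of a list and then take the log2, so its brightest genes weigh most. Sham_159 and CBDL_165 had scores of -34.5 and -22.9 on the second principal component, and the remaining 7 arrays 3.4 to 12.0. A mean log2 signal of 5.20 over the 9 arrays was taken as the bound of the dim range. Of the 69 genes, 55 lay above it and 14 below, where a signal above background is not shown, and none of those 14 was called in any comparison.

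In ligation against sham, 8 of the 11 apical carriers of the proximal tubule fell, and 5 of the 11 widely expressed uptake carriers rose. Of the 69 genes, 16 fell, with differences from -0.69 to -4.37 on the log2 scale, and 13 rose, by 0.49 to 1.76. Over all genes tested, 11.5% fell and 10.3% rose at the same threshold. Among the members, those shares were 23.2% and 18.8%. The median difference was -0.11 over the 69 members and -0.06 over all genes, with members moving in both directions. Of the 29 calls, 23 held under each of the alternative settings and left-out arrays tried.

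Among the 11 apical carriers of the proximal tubule, 8 fell, 1 rose and 2 were not called, with a median difference of -1.01. Slc7a13, a light chain that pairs with Slc3a1 late in the proximal tubule and carries acidic amino acids and cystine, read 12.04, 12.29 and 12.26 in the sham arrays, 7.79, 5.96 and 9.75 in the CBDL arrays and 10.15, 10.40 and 10.37 in the norUDCA arrays. Values in every such sentence are in the order sham_158, sham_159, sham_160, CBDL_164, CBDL_165, CBDL_170, norUDCA_CBDL_172, norUDCA_CBDL_175 and norUDCA_CBDL_179. All 3 CBDL arrays lay below all sham arrays and the norUDCA arrays lay between, with CBDL_165 far the lowest. The fall in CBDL was -4.37 ± 0.71 (SE), 20.6-fold, with an adjusted p of 0.00171. In whole-kidney RNA, fewer cells of a type and less RNA per cell cannot be told apart.

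Slc3a1, the heavy chain whose loss causes cystinuria, read 12.26, 12.25 and 12.30 in sham, 11.28, 10.94 and 11.56 in CBDL and 11.97, 12.14 and 11.98 in the norUDCA arrays. Its usual light chain Slc7a9, which exchanges cystine and basic amino acids, read 10.21, 10.07 and 10.24, then 8.95, 9.09 and 9.46, then 10.04, 9.60 and 9.87. For both genes every CBDL array lay below every sham array, and no norUDCA array overlapped either other group. Slc3a1 fell by 1.01 (SE 0.14, adjusted p 0.000854) and Slc7a9 by 1.01 (SE 0.15, adjusted p 0.00125).

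Of the 20 Slc6a genes 5 fell and none rose, and 3 of the 5 are apical carriers. Slc6a19, the main brush-border carrier of neutral amino acids, read 10.53, 10.29 and 10.48 in sham, 8.76, 8.68 and 9.23 in CBDL and 10.17, 9.62 and 10.04 in the norUDCA arrays. Slc6a20b, of a pair of mouse genes related to the proline carrier, read 10.50, 10.47 and 10.71, then 8.51, 7.94 and 9.13, then 10.02, 10.06 and 10.04. Slc6a18, which takes up glycine and alanine in later parts of the tubule, read 11.12, 11.15 and 11.03, then 10.28, 10.40 and 10.54, then 10.91, 10.97 and 10.87. In each of the 3 genes the groups kept apart on all arrays, with norUDCA in the middle. The falls in CBDL were -1.54 ± 0.18 (SE, adjusted p 0.000281) for Slc6a19, -2.04 ± 0.24 (0.000311) for Slc6a20b and -0.69 ± 0.10 (0.000836) for Slc6a18. Slc6a20a, the imino acid carrier next to Slc6a20b on the chromosome, read 9.43, 9.60 and 9.48 in sham and 9.16, 8.93 and 9.48 in CBDL. The groups met at CBDL_170, and its difference of -0.31 was not called (adjusted p 0.149), while without CBDL_170 it was (0.0268).

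The brush border's acidic amino acid and peptide carriers gave the same direction. Slc1a1, which takes up glutamate and aspartate, read 11.39, 11.53 and 11.49 in sham, 10.18, 9.91 and 10.62 in CBDL and 11.03, 10.89 and 11.08 in the norUDCA arrays. Slc15a2, the high-affinity carrier of di- and tripeptides, read 10.51, 10.57 and 10.15, then 8.65, 9.10 and 9.68, then 9.97, 9.97 and 10.07. Both fell with no overlap between CBDL and sham, Slc1a1 by 1.23 (SE 0.16, adjusted p 0.000542) and Slc15a2 by 1.27 (SE 0.22, adjusted p 0.00273). Slc15a1, the low-affinity peptide carrier, had overlapping groups and a difference of -0.21 (adjusted p 0.308).

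Slc36a2, a proton-coupled carrier of glycine and proline, was the single apical gene that rose. It read 6.49, 5.47 and 5.72 in sham, 7.15, 6.49 and 8.09 in CBDL and 5.89, 6.49 and 7.06 in the norUDCA arrays. Sham_158 and CBDL_165 had the same value, so the groups touched. The rise of 1.35 ± 0.42 (SE) had an adjusted p of 0.0477. The call was lost without sham_159 (adjusted p 0.153), sham_160 (0.123), CBDL_164 (0.0999), CBDL_170 (0.139) or norUDCA_CBDL_175 (0.0718), and also under quantile normalization (0.0631) and median centring (0.0561). Summed signals of 4 adipose markers were 7.91, 6.85 and 7.84 in sham, 9.79, 8.83 and 10.38 in CBDL and 7.38, 8.13 and 8.59 in the norUDCA arrays, with Adipoq and Cidec risen in CBDL. Within each group the array with the lowest adipose sum was also the lowest for Slc36a2, and the part of adipose tissue in its values was not tested.

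**Figure D1:**
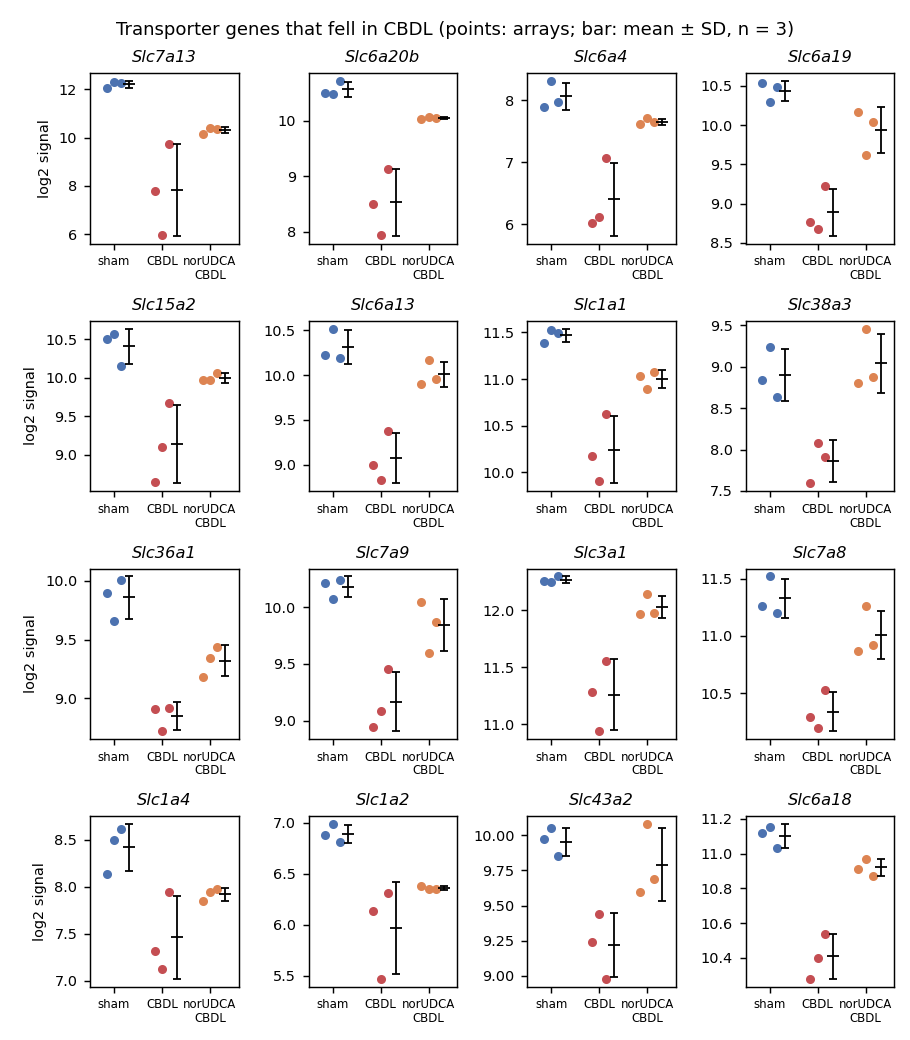
Log2 signal of the 16 transporter genes that fell in CBDL against sham, 1 panel per gene with its own axis; points are single arrays (blue sham, red CBDL, orange norUDCA-fed CBDL) and bars give the mean ± SD of 3 arrays. In every panel all 3 CBDL points lie below all sham points, and in Slc7a13 the CBDL points spread from 5.96 to 9.75. The genes were picked by this same comparison, which favours that separation in advance, and no share over all genes is given for it.

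Of the 7 carriers of basolateral exit and exchange, 3 fell, 2 rose and 2 were not called. Slc7a8, the light chain of a neutral amino acid exchanger, read 11.26, 11.52 and 11.20 in sham, 10.29, 10.20 and 10.53 in CBDL and 10.87, 11.26 and 10.92 in the norUDCA arrays. Slc43a2, a facilitator that lets branched-chain and aromatic amino acids leave the cell, read 9.97, 10.05 and 9.85, then 9.24, 9.44 and 8.98, then 9.60, 10.08 and 9.69. Slc38a3, which brings glutamine from the blood into the tubule cell as fuel for ammonia production, read 8.84, 9.24 and 8.63, then 7.59, 8.08 and 7.91, then 8.80, 9.46 and 8.88. CBDL and sham did not overlap in these 3 genes, and the norUDCA arrays of Slc38a3 lay within and above the sham range. The falls were -0.98 ± 0.14 (SE, adjusted p 0.000931) for Slc7a8, -0.73 ± 0.16 (0.00762) for Slc43a2 and -1.04 ± 0.21 (0.00618) for Slc38a3.

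The other light chains and facilitators of this side differed in direction. Slc7a6, a widely expressed light chain that exchanges basic for neutral amino acids, read 7.10, 7.15 and 6.75 in sham, 7.95, 8.34 and 8.21 in CBDL and 7.42, 7.15 and 7.42 in the norUDCA arrays. It rose by 1.17 (SE 0.15, adjusted p 0.000433). Slc7a7, its relative in the proximal tubule, read 11.69, 11.76 and 11.64 in sham and 11.38, 11.27 and 11.67 in CBDL. Its groups overlapped and its difference of -0.26 was not called (adjusted p 0.148), but was without CBDL_170 (0.0325). Slc3a2, the heavy chain that Slc7a5, Slc7a6, Slc7a7 and Slc7a8 share, differed by -0.01 (SE 0.13, adjusted p 0.978), with overlapping arrays. Slc43a1, a facilitator of large neutral amino acids, rose by 0.85 (SE 0.20, adjusted p 0.0136), from 5.74, 6.04 and 5.94 to 6.71, 6.44 and 7.14. That call was lost without sham_158 (adjusted p 0.0513).

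Of the 11 widely expressed uptake carriers, 5 rose, 1 fell and 5 were not called, with a median difference of 0.72. Slc7a5, the light chain that imports large neutral amino acids into growing cells, read 7.04, 6.96 and 6.52 in sham, 8.53, 8.71 and 8.57 in CBDL and 7.99, 7.62 and 7.91 in the norUDCA arrays. Slc38a2, a sodium-coupled carrier of small neutral amino acids that cells raise when starved of them, read 9.55, 9.20 and 9.16, then 10.56, 10.70 and 10.81, then 9.96, 9.93 and 9.96. Its neighbour Slc38a1, a glutamine carrier, read 7.05, 6.92 and 6.46, then 8.09, 8.05 and 7.94, then 7.46, 7.47 and 7.44. In all 3 genes each group kept clear of the others, with CBDL highest and norUDCA between. Slc7a5 rose by 1.76 (SE 0.15, adjusted p 6.68e-05), Slc38a2 by 1.39 (SE 0.12, adjusted p 7.07e-05) and Slc38a1 by 1.21 (SE 0.14, adjusted p 0.00032).

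The arginine carriers Slc7a1 and Slc7a2 rose too, while their relative Slc7a3, in the dim range, was not called (0.31, adjusted p 0.167). Slc7a1, the general carrier of basic amino acids, read 6.71, 7.27 and 6.45 in sham, 7.92, 8.25 and 8.02 in CBDL and 7.26, 7.09 and 7.67 in the norUDCA arrays. Slc7a2, whose arginine uptake feeds nitric oxide and polyamine synthesis in activated macrophages and is found in other cells as well, read 6.37, 5.87 and 5.85, then 7.99, 7.76 and 7.03, then 6.92, 6.85 and 7.05. CBDL lay above sham on every array for both genes. The rises were 1.25 ± 0.22 (SE, adjusted p 0.00247) and 1.56 ± 0.23 (0.00106). Slc1a4, a carrier of alanine, serine and cysteine, was the gene of this group that fell, from 8.14, 8.50 and 8.62 to 7.32, 7.12 and 7.95, by 0.96 (SE 0.20, adjusted p 0.00775). With sham_159 and CBDL_165 both left out its adjusted p was 0.0706.

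Slc1a5, the relative of Slc1a4 that takes up glutamine, and Slc7a11, the cystine importer whose cystine feeds glutathione, were not called. Slc1a5 read 7.41, 7.62 and 7.27 in sham and 8.12, 7.60 and 8.30 in CBDL, overlapping at CBDL_165, with a difference of 0.57 (adjusted p 0.0784, and 0.0209 without CBDL_165). Slc7a11 read 3.67, 3.84 and 3.75 in sham and 4.79, 4.74 and 3.88 in CBDL, all in the dim range. Its difference of 0.72 had an adjusted p of 0.0616, and 0.00388 without CBDL_170.

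**Figure D2:**
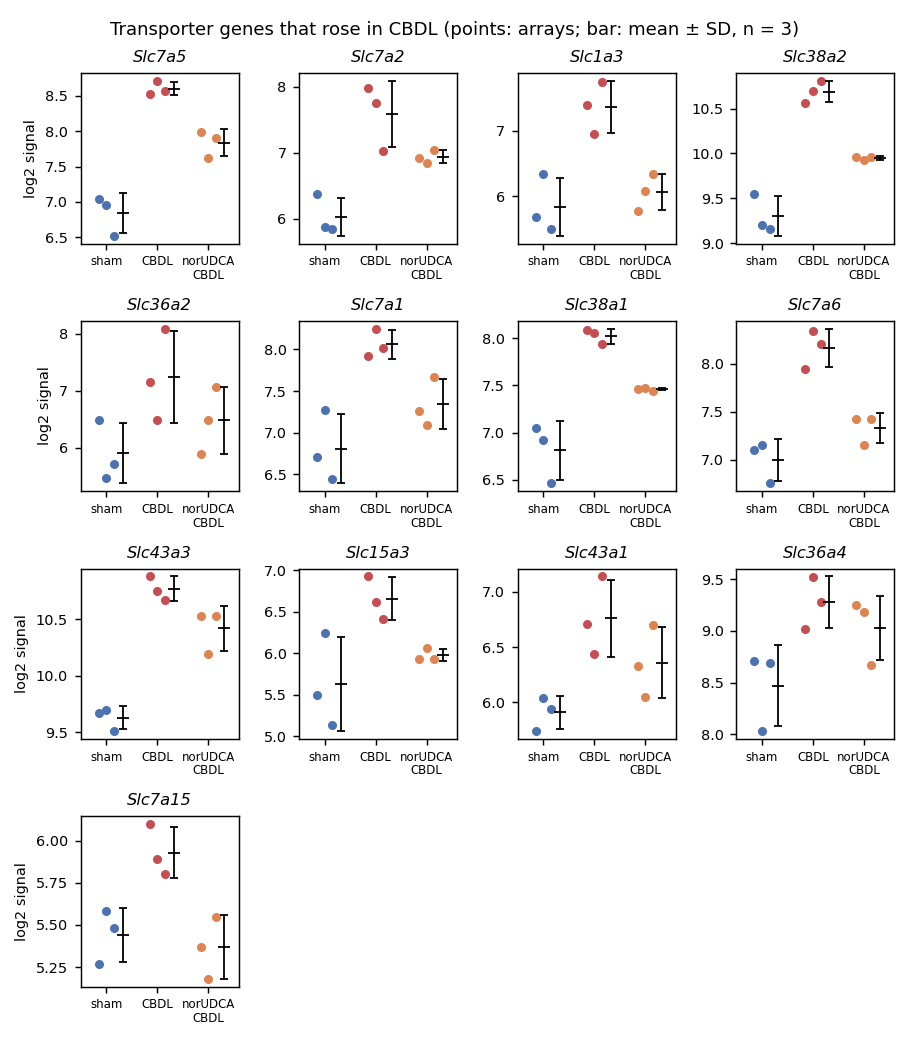
Log2 signal of the 13 transporter genes that rose in CBDL against sham, 1 panel per gene with its own axis; points are single arrays (blue sham, red CBDL, orange norUDCA-fed CBDL) and bars give the mean ± SD of 3 arrays. CBDL points lie above all sham points in 12 panels, and in Slc36a2 the groups touch at 6.49. These genes too were picked by this comparison, which favours that separation in advance, and no share over all genes is given for it.

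Taurine, betaine, creatine and GABA carriers, which the kidney uses to load osmolytes and precursors, gave 1 fall and no rise among 5 genes. Slc6a13, a carrier of GABA, taurine and betaine in the basolateral membrane of the proximal tubule, read 10.22, 10.52 and 10.19 in sham, 9.0, 8.83 and 9.38 in CBDL and 9.90, 10.17 and 9.96 in the norUDCA arrays. CBDL lay below both other groups throughout, and the fall was -1.24 ± 0.16 (SE, adjusted p 0.000457). Slc6a12, the betaine carrier of the medulla and a neighbour of Slc6a13 on the chromosome, differed by -0.40 (adjusted p 0.338), Slc6a8 for creatine by -0.17 (0.353) and Slc6a6 for taurine by 0.24 (0.124). Slc6a6 read 11.79, 11.75 and 11.68 in sham and 11.96, 11.99 and 12.01 in CBDL, without overlap but also without a call.

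Of the 8 carriers of lysosomes and endosomes, 1 fell and 2 rose. Slc36a1, which exports small amino acids from lysosomes together with protons, read 9.90, 9.66 and 10.01 in sham, 8.91, 8.72 and 8.92 in CBDL and 9.18, 9.34 and 9.44 in the norUDCA arrays. It fell by 1.01 (SE 0.12, adjusted p 0.000376) with no overlap of any groups. Slc15a3, a lysosomal histidine and peptide carrier known from macrophages and dendritic cells, read 5.50, 6.25 and 5.13 in sham and 6.93, 6.62 and 6.41 in CBDL, with a rise of 1.03 (SE 0.25, adjusted p 0.014) that was lost without CBDL_164 (0.0585). Slc36a4, a relative of Slc36a1 that carries proline and tryptophan, read 8.71, 8.03 and 8.69 in sham and 9.02, 9.52 and 9.28 in CBDL. Its rise of 0.80 (SE 0.22, adjusted p 0.0269) was lost without sham_159 (0.079), CBDL_165 (0.0951) or CBDL_170 (0.0632).

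Carriers of transmitters or amino acids that are best known in the nervous system gave 2 falls and 1 rise among 13 genes. Slc6a4, the serotonin transporter, read 7.89, 8.31 and 7.97 in sham, 6.01, 6.11 and 7.07 in CBDL and 7.61, 7.71 and 7.64 in the norUDCA arrays. Slc1a2, a glutamate carrier, read 6.88, 6.99 and 6.81, then 6.14, 5.47 and 6.31, then 6.38, 6.35 and 6.35. Slc1a3, the other glial glutamate carrier, read 5.69, 6.34 and 5.50, then 7.39, 6.95 and 7.75, then 5.78, 6.08 and 6.35. CBDL lay apart from sham on every array in all 3 genes, below it in the former pair and above it in Slc1a3. Slc6a4 fell by 1.66 (SE 0.25, adjusted p 0.00105) and Slc1a2 by 0.92 (SE 0.19, adjusted p 0.00603), and Slc1a3 rose by 1.52 (SE 0.26, adjusted p 0.00221). Of 3 neuron markers, Snap25 and Tubb3 were in the dim range on all 9 arrays, and none of the 3 was called.

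Among the remaining 11 transporter genes 2 rose. Slc43a3, a carrier of purine bases rather than amino acids, read 9.67, 9.70 and 9.51 in sham, 10.88, 10.75 and 10.67 in CBDL and 10.53, 10.19 and 10.53 in the norUDCA arrays. It rose by 1.14 (SE 0.12, adjusted p 0.00017) without overlap. Slc7a15 rose by 0.49 (SE 0.13, adjusted p 0.0273), from 5.27, 5.58 and 5.48 to 6.10, 5.89 and 5.80. That call was lost without sham_158 (adjusted p 0.0958), sham_160 (0.0579), CBDL_164 (0.0981) or CBDL_165 (0.0566). None of the 3 opposite-strand symbols was called, with differences from -0.15 to 0.03.

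**Figure D3:**
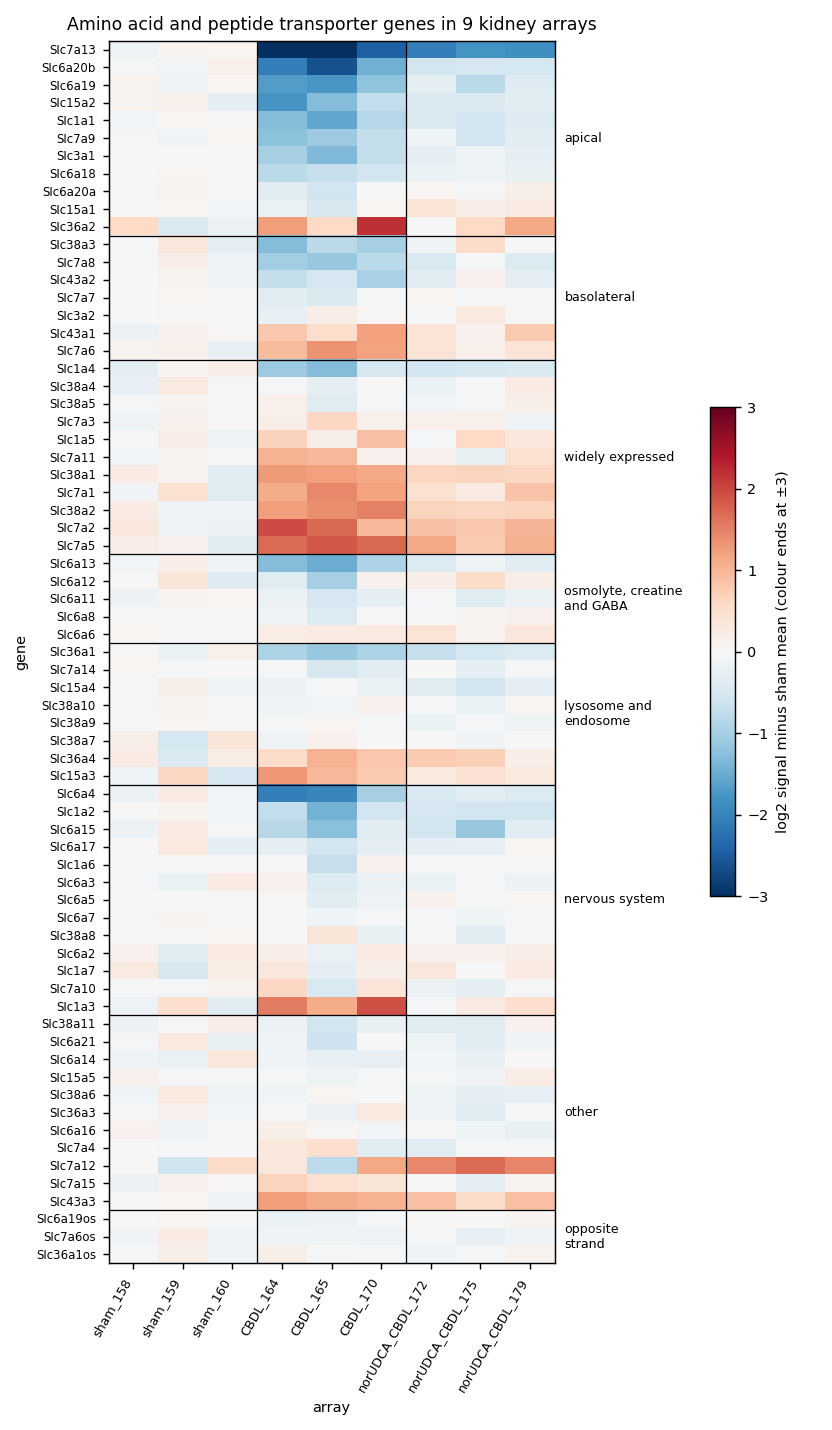
Log2 signal of all 69 genes on each of the 9 arrays, minus the mean of the 3 sham arrays of that gene; rows are grouped by role and ordered by the CBDL difference, and colours end at ±3. Most apical rows are blue in the CBDL columns and paler in the norUDCA columns, while 5 rows of the widely expressed group are red in the CBDL columns.

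For 8 pairs of related or partnered genes the difference of their changes was computed, in 24 pair comparisons. With 3 arrays a group an exact two-sided permutation test cannot go below 0.1, which 21 of the 24 reached, and after Benjamini-Hochberg adjustment none is below 0.114, so no pair passed a test of unequal change. In CBDL against sham, Slc6a20b changed by -1.72 relative to its neighbour Slc6a20a. Slc7a13 changed by -3.35 relative to Slc7a9, the other light chain of Slc3a1. Slc36a1 changed by -2.35 relative to its neighbour Slc36a2, and Slc7a6 by 1.43 relative to Slc7a7. Slc7a5 changed by 1.77 relative to its heavy chain Slc3a2. Slc7a13 changed by -4.61 relative to Slc7a12, Slc6a13 by -0.84 relative to Slc6a12 and Slc7a8 by -0.73 relative to Slc7a7. In all 8 pairs the 3 CBDL arrays and the 3 sham arrays did not overlap. With 3 arrays a group that is the same as reaching the lowest p of 0.1, so it adds nothing to the test. The pairs were not among the planned tests. In each, the gene named first was itself called in CBDL against sham, which favours the separation in advance. Probes of close relatives such as Slc6a20a and Slc6a20b can bind each other's RNA, and whether they do so here was not tested.

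Cell type markers moved together with these genes. All 12 of 12 proximal tubule markers fell in CBDL. Their summed log2 signal was 15.90 to 15.98 in sham, 14.75, 14.29 and 15.20 in CBDL_164, CBDL_165 and CBDL_170, and 15.62 to 15.73 in the norUDCA arrays. Among the 16 transporter genes that fell, CBDL_165 was the lowest CBDL array in 10 and CBDL_170 the highest in 14. That order is not particular to these genes. The first principal component of all genes, with 58.3% of the variance, scored CBDL_165 at 57.0, CBDL_164 at 40.6 and CBDL_170 at 26.1. All 10 of 10 macrophage and myeloid markers rose, with summed signals of 10.76 to 11.18 in sham, 12.40 to 13.08 in CBDL and 11.62 to 11.72 in the norUDCA arrays. All 4 of 4 fibroblast markers rose, from 11.29 to 11.72 in sham to 12.69 to 12.91 in CBDL. Among the 13 risen genes, CBDL_164 was the highest CBDL array in 5, CBDL_165 in 4 and CBDL_170 in 4. The part of these cell types in the transporter changes was not tested.

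Further lists gave fewer calls. Of 6 collecting duct markers 2 fell, of 6 thick limb and distal tubule markers 3 fell, of 3 podocyte markers 1 fell and of 5 endothelial markers 1 fell, with no rise in any of them. Of 4 adipose markers 2 rose, and of 5 neutrophil markers 2 rose, with Ly6g, Retnlg and S100a8 in the dim range on all arrays. Of 6 lymphocyte markers 1 fell, and none of 3 urothelial markers was called. Of 4 liver markers 2 fell, with sums of 11.44 to 11.64 in sham and 8.88 to 10.20 in CBDL.

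Partners and regulators of the brush-border carriers went down with them: of 7 measured genes 6 fell and 1 rose. Cltrn, the collectrin protein that Slc6a19 needs to reach the brush border, fell by 1.12 (SE 0.19, adjusted p 0.0021). Anpep, a peptidase of the same membrane, fell by 1.51 (SE 0.22, adjusted p 0.000991), and Dpep1, another, by 0.69 (adjusted p 0.0299). Slc16a10, which lets aromatic amino acids out through the basolateral membrane, fell by 0.67 (adjusted p 0.00833), and the scaffold gene Slc9a3r1 by 0.42 (0.0185). Hnf4a, a transcription factor of proximal tubule and liver cells, fell by 0.68 (adjusted p 0.00144). Sgk1, a kinase that raises the activity of several carriers, rose by 0.52 (adjusted p 0.0346).

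Genes of the amino acid response, the programme that Atf4 drives when amino acids run short, gave 8 rises, 2 falls and 7 without a call among 17, with a median difference of 0.44. The summed signal of the list was lower in CBDL, at 12.08 to 12.25, than in sham, at 12.47 to 12.66. The brightest genes weigh most in such a sum, so it does not show a fall of the list as a whole. Ddit4, an inhibitor of mTORC1, rose by 1.70 (adjusted p 0.000396), Nupr1 by 1.46 (0.000284), the proline synthesis enzyme Aldh18a1 by 1.04 (0.000273), and asparagine synthetase Asns by 0.76 (0.00754). Atf4 itself differed by 0.15 (adjusted p 0.448), and Trib3, Chac1, Ddit3, Sesn2 and Psat1 were not called either. Shmt2, the mitochondrial enzyme that turns serine into glycine, fell by 1.93 (adjusted p 0.000121). Of 14 genes of amino acid sensing by mTORC1, 1 rose and 3 fell, among them Mtor by 0.90 (adjusted p 0.000542). Of 6 genes of glutathione synthesis and its control, 1 rose and 2 fell, Gss by 1.25 (adjusted p 0.00033) and Gclm by 0.81 (0.00859), while Nfe2l2 rose by 0.46 (0.00401).

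In the norUDCA group 11 of the 69 genes were higher and 6 lower than with ligation alone. Over all genes 3.61% rose and 3.2% fell in this comparison, and among the members 15.9% and 8.7%. The median difference was 0.10 over the members and -0.003 over all genes. This comparison shares the CBDL arrays with the one against sham, so an opposite sign in both is not independent of the choice of genes. The 17 genes called here were all among the 29 called in CBDL against sham.

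Of the 11 apical carriers 7 rose and none fell, with a median difference of 0.76. Slc6a20b rose by 1.51 (SE 0.24, adjusted p 0.01), Slc6a19 by 1.05 (SE 0.18, adjusted p 0.0121), Slc15a2 by 0.86 (SE 0.22, adjusted p 0.0494), Slc3a1 by 0.77 (SE 0.14, adjusted p 0.016), Slc1a1 by 0.76 (SE 0.16, adjusted p 0.0235), Slc7a9 by 0.67 (SE 0.15, adjusted p 0.0328) and Slc6a18 by 0.51 (SE 0.10, adjusted p 0.0169). Slc7a13 was 2.47 higher (SE 0.71) with no overlap, but its adjusted p was 0.0709, and 0.00196 without CBDL_170, the array that lay nearest to the norUDCA group. The other carriers that rose were Slc6a4, by 1.25 (SE 0.25, adjusted p 0.0179), Slc38a3, by 1.18 (SE 0.21, adjusted p 0.014), Slc6a13, by 0.94 (SE 0.16, adjusted p 0.0115), and Slc7a8, by 0.67 (SE 0.14, adjusted p 0.024).

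On the other side, Slc1a3 fell by 1.29 (SE 0.26, adjusted p 0.019), Slc7a6 by 0.84 (SE 0.15, adjusted p 0.013), Slc7a5 by 0.77 (SE 0.15, adjusted p 0.0192), Slc38a2 by 0.74 (SE 0.12, adjusted p 0.011), Slc38a1 by 0.56 (SE 0.14, adjusted p 0.047) and Slc7a15 by 0.56 (SE 0.13, adjusted p 0.0364). The arginine carriers Slc7a1 and Slc7a2 were 0.73 and 0.65 lower without a call (adjusted p 0.0812 and 0.145), the latter called without CBDL_170 (0.0122) and the former without sham_159 (0.0362). Slc43a3 was 0.35 lower, without overlap of the arrays but also without a call (adjusted p 0.13).

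The mean of the norUDCA arrays lay between those of sham and CBDL in 15 of the 16 fallen genes, Slc38a3 being above sham, and in 12 of the 13 risen genes, Slc7a15 being below sham. All 3 norUDCA arrays were above all CBDL arrays in 15 of the 16 fallen genes, the exception being Slc1a4, and below them in 9 of the 13 risen genes. Over all genes the shares with all norUDCA arrays above or below all CBDL arrays were 11.6% and 12.6%. No share over all genes was computed for means lying between. The choice of genes by their CBDL values favours each of these counts in advance, the means lying between included.

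**Figure D4:**
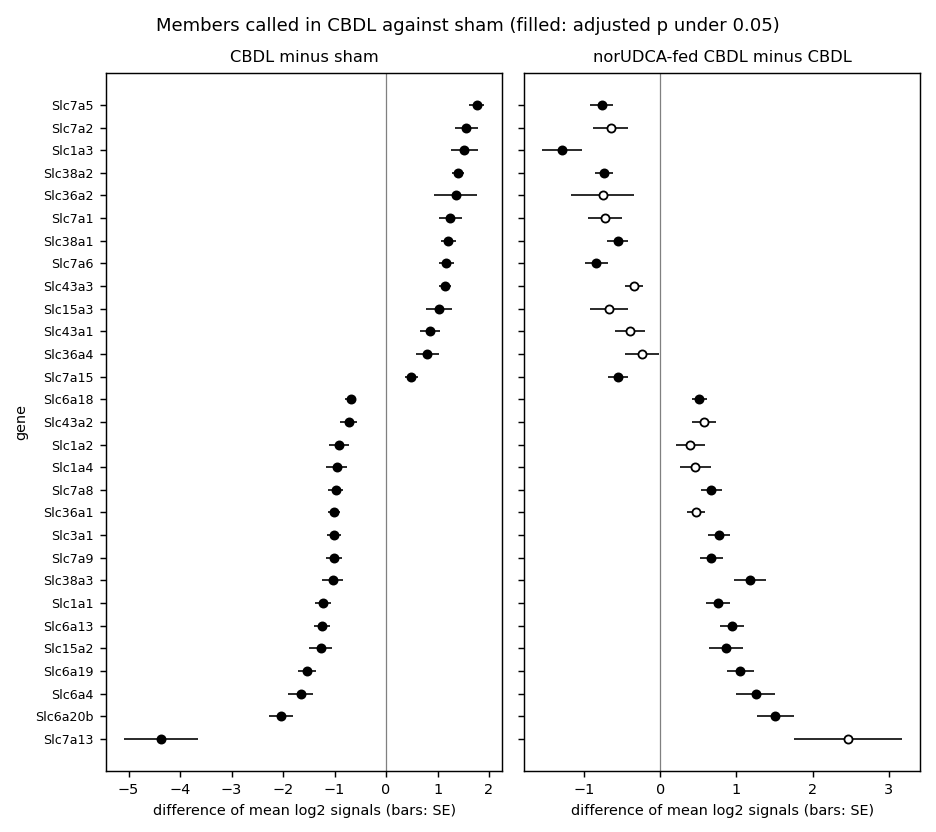
Differences of mean log2 signal for the 29 genes called in CBDL against sham, ordered by that difference; left, CBDL minus sham, and right, norUDCA-fed CBDL minus CBDL, on separate axes, with bars for SE and filled points for adjusted p under 0.05. Both panels share the CBDL arrays; Slc7a13 has the largest fall, -4.37, and an open point at 2.47 in the right panel.

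These calls depended on single arrays. Without CBDL_164, 1 of the 69 genes rose and 2 fell. Without CBDL_165, 6 rose and 4 fell, and without CBDL_170, 17 rose and 8 fell. The calls over all genes moved as well, from 1509 with all arrays to 361, 695 and 2043 without these arrays in turn. Without norUDCA_CBDL_172, 4 rose and 3 fell. Without norUDCA_CBDL_175, 2 rose and 0 fell, and without norUDCA_CBDL_179, 4 rose and 3 fell. Over all genes, 504, 278 and 571 were called without norUDCA_CBDL_172, norUDCA_CBDL_175 and norUDCA_CBDL_179. Slc6a20b was called whichever array was left out, at an adjusted p of 0.0499 or less. Slc6a19 lost its call only without CBDL_164 (0.0529) among the single arrays, and Slc38a2 and Slc7a6 only without norUDCA_CBDL_175 (0.0512 and 0.0603). Slc38a3 and Slc6a13 lost theirs without CBDL_164 (0.0584 and 0.0516) or norUDCA_CBDL_175 (0.0565 and 0.0568). Each of the other 11 lost its call when any of 3 or more single arrays was left out, at adjusted p of up to 0.147.

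Partners and amino acid response genes gave few calls under norUDCA. Among the 7 partners and regulators 2 rose, Anpep by 1.0 (adjusted p 0.0279) and Hnf4a by 0.54 (0.0194). Among the 17 response genes 2 fell, Ddit4 by 0.84 (adjusted p 0.0422) and Aldh18a1 by 0.49 (0.0416), and 1 rose, Shmt2 by 1.16 (0.011). None of the 14 mTORC1 genes was called, and of the 6 glutathione genes 1 rose, Gss by 0.60 (0.0413). Of the 12 proximal tubule markers 8 rose and of the 10 macrophage and myeloid markers 9 fell. Their part in the transporter values was not tested here either.

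Set against sham, 4 of the 69 genes were higher in the norUDCA group and 1 was lower, beside 1.82% and 1.37% of all genes. The median difference was -0.06 over the members and -0.05 over all genes. Slc7a5 was 1.0 higher (SE 0.15, adjusted p 0.00974), Slc43a3 0.79 (SE 0.12, adjusted p 0.00971), Slc38a1 0.65 (SE 0.14, adjusted p 0.0426) and Slc38a2 0.65 (SE 0.12, adjusted p 0.0232). All 4 carriers had risen in CBDL as well, and their norUDCA arrays lay above every sham array. In this comparison 7 of 10 macrophage and myeloid markers and 2 of 4 fibroblast markers were higher too, and none of 12 proximal tubule markers was called. The part of these cell types was not tested. Slc36a1 was lower by 0.53, as -0.53 ± 0.12 (SE), at an adjusted p of 0.0497. None of the 11 apical carriers was called, with a median difference of -0.34. In 8 of the 11 all norUDCA arrays lay below all sham arrays, as they did in 13.5% of all genes. Slc7a13 was 1.89 below sham, with no overlap, at an adjusted p of 0.218. That fit takes 1 spread from all 3 groups, and with only the 6 arrays of these groups in it the adjusted p was 0.00136. The apical genes Slc6a20b (-0.52, adjusted p 0.321) and Slc1a1 (-0.47, 0.179) were also called in that smaller fit (0.0356 and 0.0499).

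These calls too depended on single arrays. The count of higher genes was 2 without sham_159, sham_160 or norUDCA_CBDL_175, and 0 without norUDCA_CBDL_172 or norUDCA_CBDL_179. Over all genes, calls in these 5 fits numbered 420, 298, 401, 206 and 156 in turn, against 706 with all arrays. Slc7a5 and Slc43a3 lost their calls only without norUDCA_CBDL_172 (0.0533 and 0.0546) or norUDCA_CBDL_179 (0.0576 and 0.0584) among the single arrays. Slc38a1 kept its call only without sham_158, and lost it without any other array (0.0521 to 0.149). Slc38a2 lost its call without sham_159 (0.0675), sham_160 (0.0835) or any norUDCA array (0.0647 to 0.103). Slc36a1 lost its call without sham_158 (0.124), sham_160 (0.144), CBDL_164 (0.0766), CBDL_170 (0.0607) or any norUDCA array (0.113 to 0.192), and the count of lower genes was 3 without CBDL_165.

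Stretches of DNA before the transcription start were examined for members that moved together. RefSeq promoter sequence of build GRCm38.p6 was at hand for 51 of the 69 genes, 13 of the 16 that fell and 7 of the 13 that rose. The 250 bases before each start were searched on both strands for 3 motifs: GTTAAT, the core letters of the site of HNF1, a factor of tubule and liver cells; CAAAGTCCA, a site of HNF4; and TGATGCAA, the core of the amino acid response element that Atf4 binds. None of the 3 motifs contains another, on either strand. Windows are shown for the called genes that hold a match (Slc3a1, Slc6a13, Slc36a1 and Slc7a15), for the neighbours Slc6a20b, which fell, and Slc6a20a, which was not called, and for Slc7a11, which holds a motif on both strands. They are printed 5′ to 3′ on the strand of the gene, with the motif on either strand in capitals. Where a gene has several starts, the window with the match is shown.
Slc3a1 (chr17:85028097-85028346, plus strand): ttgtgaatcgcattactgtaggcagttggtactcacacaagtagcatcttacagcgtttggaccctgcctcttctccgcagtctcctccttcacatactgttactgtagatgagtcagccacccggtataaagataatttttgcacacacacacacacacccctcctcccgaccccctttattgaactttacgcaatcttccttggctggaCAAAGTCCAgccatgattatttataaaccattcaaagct
Slc6a13 (chr6:121300490-121300739, plus strand): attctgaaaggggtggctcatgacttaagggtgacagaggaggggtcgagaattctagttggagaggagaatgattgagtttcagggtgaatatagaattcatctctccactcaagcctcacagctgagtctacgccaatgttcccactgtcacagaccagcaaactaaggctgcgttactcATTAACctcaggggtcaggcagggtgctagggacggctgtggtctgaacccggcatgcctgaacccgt
Slc36a1 (chr11:55204090-55204339, plus strand): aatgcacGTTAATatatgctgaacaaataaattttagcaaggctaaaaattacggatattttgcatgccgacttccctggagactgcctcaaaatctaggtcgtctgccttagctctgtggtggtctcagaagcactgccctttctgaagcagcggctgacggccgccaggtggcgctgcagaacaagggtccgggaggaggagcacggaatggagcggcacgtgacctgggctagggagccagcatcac
Slc7a15 (chr12:8599067-8599316, minus strand): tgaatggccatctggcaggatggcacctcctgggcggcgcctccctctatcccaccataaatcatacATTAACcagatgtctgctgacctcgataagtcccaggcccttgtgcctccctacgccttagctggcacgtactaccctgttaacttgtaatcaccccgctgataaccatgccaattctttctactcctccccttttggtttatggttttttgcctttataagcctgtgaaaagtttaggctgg
Slc6a20b (chr9:123632539-123632788, minus strand): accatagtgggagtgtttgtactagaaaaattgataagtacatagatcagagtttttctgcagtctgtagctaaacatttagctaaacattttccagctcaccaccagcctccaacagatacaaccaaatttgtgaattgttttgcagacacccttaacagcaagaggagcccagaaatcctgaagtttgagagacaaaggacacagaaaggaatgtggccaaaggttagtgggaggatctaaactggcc
Slc6a20a (chr9:123678833-123679082, minus strand): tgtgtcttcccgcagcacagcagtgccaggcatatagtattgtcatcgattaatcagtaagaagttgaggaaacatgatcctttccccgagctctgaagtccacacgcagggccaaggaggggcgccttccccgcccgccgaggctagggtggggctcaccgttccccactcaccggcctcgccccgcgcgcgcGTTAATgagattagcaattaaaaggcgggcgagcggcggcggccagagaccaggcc
Slc7a11 (chr3:50443614-50443863, minus strand): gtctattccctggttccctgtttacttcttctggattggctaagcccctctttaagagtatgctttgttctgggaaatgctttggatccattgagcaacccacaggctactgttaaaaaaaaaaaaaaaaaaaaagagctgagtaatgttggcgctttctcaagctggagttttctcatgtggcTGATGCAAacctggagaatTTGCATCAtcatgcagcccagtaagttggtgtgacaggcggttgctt

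The HNF4 site stood in 0.384% of all 32851 promoters and, counting genes, in 0.451% of all genes of the table. Of the 13 fallen genes 1 held it, Slc3a1, where it starts 39 bases before the start. The HNF1 core stood in 6.43% of all promoters and, counting genes, in 2 of the 13 that fell (Slc36a1 and Slc6a13), 1 of the 7 that rose (Slc7a15) and 3 of the 31 without a call (Slc6a16, Slc6a20a and Slc7a7). Over all genes of the table its share was 7.49%. The response element core stood in 0.791% of all promoters and 0.918% of all genes of the table. It was in no member that rose or fell, and in 2 of 31 without a call. Slc7a11 holds it on both strands, 66 and 47 bases before the start, and Slc7a7 once. The windows of Slc7a7 and Slc6a16 are not printed. A match here is a description of letters and not a bound site, and the lack of a match says only that these letters are not in this window.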

How the data were processed

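The log2 signals of 9 whole-kidney arrays were used as deposited: the authors normalized them by RMA in Partek 6.6, per the submitters' processing notes, and the array version's build is not given in the sources used here. Labels, RNA extraction and hybridization give no batch. Of 41345 rows, 23521 have 1 gene symbol in the platform annotation, 1814 several and 16010 none. Each of 22180 genes is its brightest single-symbol row (1341 further rows unused). Group means were compared with limma 3.58.1 in R 4.3.3 (all 9 arrays, 1 mean per group, moderated variances with 6 residual and 3.77 prior degrees of freedom), two-sided, with Benjamini-Hochberg adjustment over all genes and a threshold of 0.05. The code was tested on simulated data. The median SE of a difference was 0.136, and 3 arrays a group limit the precision. Named are all members called in any comparison and 26 kidney or widely studied carriers called or not, 38 genes in all, and Slc7a12 and Slc6a15, chosen after their values were seen. Slc7a3 and Slc38a10 are named beside their relatives or for their second row, also after their values were seen. The members and the role, pathway and marker lists were chosen with earlier results of these data known. Alternatives were other variance models, array weights, scaling, row choice, a dim-gene filter, fewer groups and each array left out. Promoters are from RefSeq's GRCm38.p6 table.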

Additional observations from a re-analysis of the deposited data

Results flagged for a closer look

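A second row of Slc36a4, not used in the comparisons because it was dimmer than the first, held a signal of its own. It read 7.27, 7.92 and 7.18 in the sham arrays and 8.22, 8.03 and 8.11 in the CBDL arrays, a mean of 8.12 in CBDL with every CBDL array above every sham array. The difference of 0.67 has the same direction as the 0.80 of the row that was used. The norUDCA arrays of this second row read 7.90, 7.88 and 7.92. Unused second rows of Slc1a5, Slc7a11 and Slc38a10 differed by -0.14, -0.13 and -0.1 in CBDL against sham. The rows used for these genes gave 0.57, 0.72 and -0.03, so the sign differed between rows for Slc1a5 and Slc7a11. The second row of Slc1a5 was nearly flat, at 6.39, 6.91 and 6.29 in sham and 6.39 on every CBDL and norUDCA array. Its sign rests on sham_159 alone. Both rows of Slc7a11 were in the dim range.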

How the results depend on the processing

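No paired analysis was possible because the groups share no replicate numbers. For CBDL against sham the counts of members that rose and fell, and of all genes, stayed within 1.5 times under every alternative except that 8 members rose with variances not moderated. The fed comparisons moved more. For norUDCA against CBDL, variances not moderated gave 25 genes in all, with 0 members higher and 0 lower; the fit of only 6 arrays gave 912 genes and 6 members higher; leaving out both sham_159 and CBDL_165, an alternative chosen after seeing the data, gave 749 genes and 5 members higher. Leaving out 1 array gave 278 to 2043 genes, 1 to 17 members higher and 0 to 8 lower. For norUDCA against sham, variances not moderated gave 169 genes, 0 members higher and 0 lower; array weights gave 1638 genes and 2 members lower; the fit of only 6 arrays gave 4 members lower; quantile normalization, median centring and the mean of all rows of a gene gave 0 lower; without both sham_159 and CBDL_165 there were 2 higher and 2 lower. Leaving out 1 array gave 156 to 822 genes, 0 to 5 members higher and 0 to 3 lower. The cause of these moves was not tested. Signs turned only in uncalled differences. In CBDL against sham Slc3a2 (-0.01) was 0.11 after quantile normalization and -0.10 to 0.11 with 1 array left out, and Slc6a12 (-0.40) was 0.07 without both sham_159 and CBDL_165. In norUDCA against CBDL with 1 array left out, Slc3a2 was -0.01 to 0.21 and Slc6a6 -0.01 to 0.14. In norUDCA against sham with 1 array left out, Slc38a3 was -0.07 to 0.31, Slc7a11 -0.04 to 0.29, Slc7a15 -0.17 to 0.02 and Slc7a7 -0.03 to 0.03; array weights gave 0.03 for Slc7a15 and median centring -0.02 for Slc7a7. Median centring put the median of all genes in CBDL against sham at -0.102, from -0.059 as deposited. All 51 calls of named genes over the 3 comparisons kept their direction under every alternative run.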

Other observations

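Slc7a12, a member of the light-chain family that was called in no comparison, was highest in the norUDCA arrays. It read 10.36, 9.73 and 10.86 in sham, 10.67, 9.54 and 11.48 in CBDL and 11.77, 12.01 and 11.78 in the norUDCA arrays, so all 3 of the latter lay above the other 6. The norUDCA group was 1.54 above sham (adjusted p 0.0964) and 1.29 above CBDL (0.115). The 3 sham arrays spread with an SD of 0.57 and the CBDL arrays with 0.97, against 0.14 in the norUDCA group.

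Slc6a15, a carrier of branched-chain amino acids and proline best known in neurons, read 8.08, 8.51 and 8.20 in sham and 7.42, 7.0 and 7.93 in CBDL. CBDL lay below sham on all arrays, and the difference of -0.81 was not called (adjusted p 0.0516). The norUDCA arrays read 7.72, 7.12 and 7.95, within or near the CBDL range.

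Over the 40 members without a call in CBDL against sham, differences ran from -0.81 to 0.72 with a median of -0.10.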
